A study of Mus musculus with 4 samples.

Results

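The matrix metalloproteases (MMPs), the ADAMTS proteases and the tissue inhibitors of metalloproteases (TIMPs) were followed in RNA-Seq of the mouse urogenital sinus (UGS), the embryonic tissue from which the prostate develops. Members were all rows of the deposited table whose symbol is Mmp, Adamts or Timp followed by a family number, which gave 46 of 25819 rows: 23 Mmp, 19 Adamts and 4 Timp genes. The libraries were made from whole UGS of male Tbx18Gfp/Gfp embryos, homozygous for a GFP knock-in that is a null allele of the T-box factor gene Tbx18, and of wild type littermates, at E16.5 and at E18.5. Each of the 4 libraries pooled RNA of 3 embryos of 1 genotype and stage, so there was no replicate within a group, no test between groups could be made, and the stated intervals cover counting error only. All embryos were on a B6C3-F1 hybrid background according to the study's methods, and every control carried both intact copies of Tbx18. In whole UGS, fewer cells of a type and less RNA per cell cannot be told apart.

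MMPs are zinc-dependent endopeptidases that are made as inactive proenzymes and cleave collagens, gelatin, laminins and other matrix proteins, and some of them are anchored in the plasma membrane. ADAMTS proteases are secreted relatives that carry thrombospondin repeats, and groups of them cleave proteoglycans such as versican, or trim procollagens. TIMPs bind the active site of these enzymes, and TIMP2 also takes part in the activation of proMMP2 by MMP14 at the cell surface. In the developing prostate the matrix is remodelled where epithelial buds grow into the surrounding mesenchyme.

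Values are FPKM, fragment numbers scaled to the length of the transcript and to the mapped reads of the library, and a ratio was taken where one of the paired libraries had 1 FPKM or more. From the FPKM of single reads the libraries held about 6.40e+07 (wild type) and 5.57e+07 (mutant) mapped reads at E16.5, and 2.90e+07 and 5.24e+07 at E18.5. The E18.5 wild type library stood apart from the other 3. It was the shallowest, its FPKM summed to 375826 against 460392 to 504136, and 19.5% of 14807 genes differed by 2-fold or more between it and E16.5 wild type, compared with 1.92% of 14713 between the mutant libraries of both stages. Its ratios also followed base composition, with a Spearman's rho between transcript GC content and the mutant to wild type ratio of 0.44 at E18.5 (11658 genes) and 0.03 at E16.5 (12066 genes). For E18.5 against E16.5 the rho was -0.50 in wild type and -0.23 in the mutant. It was -0.18 for E18.5 mutant against E16.5 wild type, so a weaker trend was also present without that library. Markers of the urogenital sinus were present in every library, Hoxd13 at 36.8 to 67.4 FPKM and Shh at 15.0 to 20.2 FPKM. Skeletal muscle genes were present in every library as well, and the tissue they came from was not tested. Tbx18 itself was at 3.47 FPKM in E16.5 wild type, 2.50 in its mutant, 3.16 in E18.5 wild type and 2.93 in its mutant, and FPKM cannot tell a read of the Gfp allele from a read of an intact one.

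Of the 46 genes, 32 reached 1 FPKM in at least 1 library and 14 reached 10 FPKM. The membrane-anchored collagenase Mmp14 and the gelatinase Mmp2 dominated the proteases. Mmp14 had 116 FPKM in E16.5 wild type, 124 in E16.5 Tbx18Gfp/Gfp, 81.1 in E18.5 wild type and 119 in E18.5 Tbx18Gfp/Gfp UGS. Mmp2 had 117, 123, 76.8 and 111 FPKM in the same order. Mmp2 was at 0.934 to 1.01 times the level of Mmp14, and both were lowest in E18.5 wild type and together made up 74.9% to 78.8% of the summed FPKM of all Mmp genes. Among the inhibitors, Timp2 had 89.2, 87.7, 94.9 and 94.6 FPKM and Timp3, whose product is held in the matrix, had 64.97, 76.7, 89.0 and 69.3 FPKM. Timp1 was about an order of magnitude lower, at 8.43 to 11.8 FPKM, and Timp4 stayed under 1 FPKM in every library. The order of the ADAMTS genes was led by Adamts1, Adamts9 and Adamts10, which reached 22.97, 21.9 and 20.8 FPKM in their highest libraries.

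**Figure D1:**
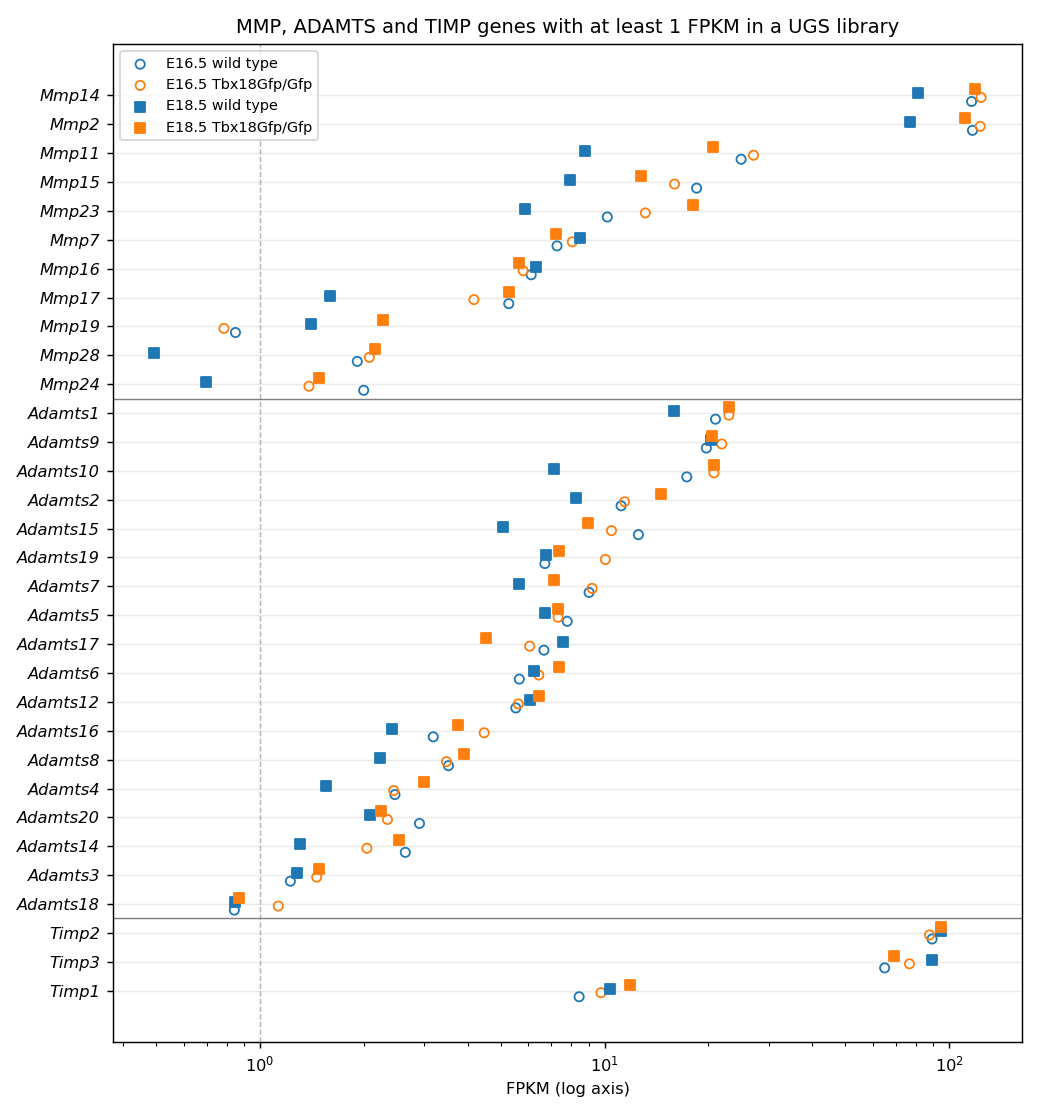
FPKM (log axis) of the 32 members that reached 1 FPKM, by family, with 1 point per library and no replicates. Mmp14, Mmp2, Timp2 and Timp3 lie well to the right of all others, and the filled blue squares of E18.5 wild type are the lowest point for 19 genes.

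The remaining 14 genes were below 1 FPKM throughout, 12 of them Mmp genes with Adamts13 and Timp4, and 10 did not reach 0.1 FPKM. None of the 4 interstitial collagenases Mmp1a, Mmp1b, Mmp8 and Mmp13 passed 1 FPKM. Most of these genes lie together. In the deposited positions, whose build is not named in the sources used here, 10 Mmp genes fill 427 kb of chromosome 9 from 7272514 to 7699416, and 9 of the 10 were below 1 FPKM, the highest of them Mmp8 with 0.505 FPKM. The exception at the end of the row was Mmp7, which encodes matrilysin, a protease of glandular epithelium. Mmp7 had 7.28 FPKM in E16.5 wild type, 8.06 in E16.5 Tbx18Gfp/Gfp, 8.51 in E18.5 wild type and 7.21 in E18.5 Tbx18Gfp/Gfp UGS. Its levels spanned 1.18-fold over the 4 libraries, and it was above each of its neighbours in all of them.

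**Figure D2:**
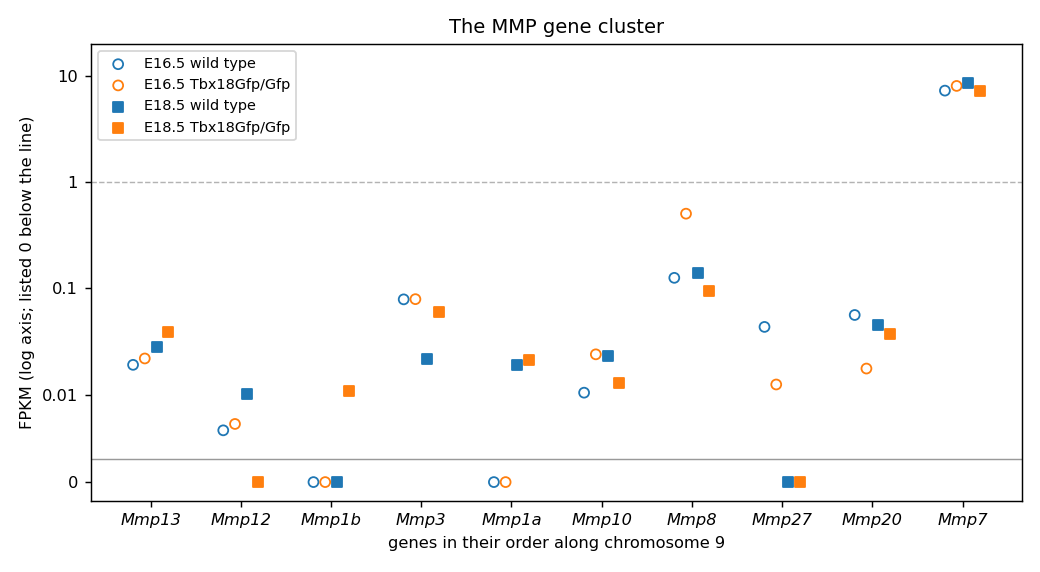
FPKM (log axis, with values listed at 0 below the solid line) of the 10 Mmp genes of the chromosome 9 cluster in their order along the chromosome, 1 point per library. Mmp7 lies between 7.21 and 8.51 FPKM, and the other 9 genes lie below the dashed line at 1 FPKM.

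The cluster also shared promoter sequence, which is shown for Mmp7 and for a pair of its neighbours below 1 FPKM because the same elements stood before genes of very different level. RefSeq promoters (GRCm38.p6, not the build of the deposited positions) were found for 32 of the 46 genes, some with more than 1 start, and the 250 bases before the start were searched on both strands for TGACTCA, the site of AP-1 factors, TATAAA, the TATA box, GGGCGG, the GC box of Sp1-type factors, and AGGTGTGA, a site of T-box factors. In the following sequences, written 5′ to 3′ on the strand of the gene, capitals mark these motifs.
Mmp1a (chr9:7463891-7464140, + strand): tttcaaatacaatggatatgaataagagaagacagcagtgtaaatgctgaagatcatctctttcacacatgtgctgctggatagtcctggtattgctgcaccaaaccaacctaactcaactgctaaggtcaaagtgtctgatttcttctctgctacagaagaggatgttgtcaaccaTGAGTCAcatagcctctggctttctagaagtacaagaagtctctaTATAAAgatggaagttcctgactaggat
Mmp10 (chr9:7502092-7502341, + strand): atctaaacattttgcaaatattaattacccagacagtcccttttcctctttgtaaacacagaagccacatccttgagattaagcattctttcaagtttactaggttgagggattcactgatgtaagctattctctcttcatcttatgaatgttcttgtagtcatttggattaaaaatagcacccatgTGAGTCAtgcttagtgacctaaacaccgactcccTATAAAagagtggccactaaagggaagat
Mmp7 (chr9:7691840-7692089, + strand): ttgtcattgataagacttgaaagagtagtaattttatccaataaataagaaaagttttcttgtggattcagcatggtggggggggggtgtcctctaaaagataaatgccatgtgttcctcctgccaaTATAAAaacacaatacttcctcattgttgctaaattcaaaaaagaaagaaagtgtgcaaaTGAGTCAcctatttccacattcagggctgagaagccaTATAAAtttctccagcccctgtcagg
In each of the 3 an AP-1 site stood upstream of a TATA box, 63 bases before the start in Mmp10 and Mmp7 and 73 in Mmp1a. Of the 12 promoters of the cluster, 7 held the AP-1 site, against 4.46% of all 32851 promoters of this length, 7 held a TATA box, against 12.4%, and none held a GC box, against 32.7%. A second start listed for Mmp7 held none of the 4 motifs. No promoter of the 3 families held the T-box site, which was found in 1.12% of all promoters. A match is a description of the letters, and their absence says nothing about binding elsewhere.

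At E16.5 no member reached a 2-fold difference between Tbx18Gfp/Gfp and wild type UGS. All 31 genes that passed the filter were within 2-fold, with a median log2 ratio of 0.07 that was -0.03 with library sums made equal. Of the 31, 19 (61.3%) were higher in the mutant as deposited, as were 54.2% of all genes, and Mmp2, Mmp14, Adamts2, Adamts7 and Adamts12 changed sign under another scaling. Over all genes, 0.481% were at least 2-fold higher and 1.17% at least 2-fold lower, 1.65% in all, and the median was 0.01. Adamts19, of the ADAMTS genes whose substrates are poorly known, had 6.71 FPKM in wild type and 10.05 in the mutant, with a log2 ratio of 0.58 (95% counting interval 0.50 to 0.66). Mmp24, which encodes a membrane-type MMP first known from brain, had 1.999 and 1.39 FPKM, with a log2 ratio of -0.53 (-0.73 to -0.33). Timp2 was level between the genotypes at a log2 ratio of -0.02 (-0.05 to 0.00), and Timp3 was higher in the mutant by 0.24 (0.21 to 0.27).

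Mmp8 and Mmp9, proteases stored in neutrophil granules, were higher in the E16.5 mutant library but below 1 FPKM and therefore not among the counted genes. Mmp8, also called neutrophil collagenase, had 0.126 FPKM in wild type and 0.505 in the mutant at E16.5, and 0.138 and 0.0937 at E18.5. The E16.5 values stand for about 20 and 68 reads and a ratio of 4.02 (counting interval 2.44 to 7.24), and the E16.5 mutant library was the only high one. Mmp9 had 0.379 and 0.724 FPKM at E16.5, and 0.412 and 0.691 at E18.5, so both mutant libraries were above their wild type as deposited. Its ratio was 1.91 (1.43 to 2.57) at E16.5 and 1.68 (1.15 to 2.49) at E18.5. The E18.5 log2 ratio of 0.75 was 0.19 with the trend of all genes on length and GC content subtracted. The neutrophil markers S100a8, S100a9, Camp, Ngp, Ltf, Elane, Mpo and Lcn2 were all 8 higher in the E16.5 mutant library, where they summed to 81.2 FPKM against 9.65 to 14.6 in the others. At 0.469 to 31.1 FPKM in that library, none of them was at 0 there. Between the E18.5 libraries 1 of the 8 was higher in the mutant and 7 were lower. The part of these cells in the Mmp8 and Mmp9 values was not tested.

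At E18.5 the same 46 genes looked different. Of 31 that passed the filter, 26 (83.9%) had a higher FPKM in Tbx18Gfp/Gfp than in wild type UGS, as had 69.5% of all genes, 6 were at least 2-fold higher and none was 2-fold lower, with a median log2 ratio of 0.53. Over all genes, 15.1% were at least 2-fold higher, 2.89% at least 2-fold lower, 18% in all, and the median was 0.31. The 6 of 31 members, 19.4%, are thus near the share of all genes. Mmp28, with 0.493 FPKM in E18.5 wild type, and Mmp24, with 0.699, passed the filter through the mutant library alone. They were counted only because they were high there. Within the 3 families the counts were uneven, at 5 of 11 Mmp, 1 of 17 Adamts and none of 3 Timp genes, and the division by family was not tested. The genes past 2-fold lie apart in the genome, in the deposited positions with Mmp28 at chr11:83255378-83276463, Mmp17 at chr5:130090089-130114086, Mmp23 at chr4:155024764-155027493, Adamts10 at chr17:33661169-33690421, Mmp11 at chr10:75385969-75395208 and Mmp24 at chr2:155601080-155644102.

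Mmp28, which encodes epilysin, an MMP first described in skin and testis, had the largest ratio. It had 1.92 FPKM in E16.5 wild type, 2.08 in E16.5 Tbx18Gfp/Gfp, 0.493 in E18.5 wild type and 2.15 in E18.5 Tbx18Gfp/Gfp UGS. Only the E18.5 wild type library was low, with about 49 reads, and the E18.5 ratio was 4.37 (counting interval 3.25 to 6.03). Mmp17, a membrane-type MMP held by a GPI anchor, had 5.27, 4.18, 1.60 and 5.27 FPKM in the same order of libraries. Its E18.5 ratio was 3.30 (2.92 to 3.74), while at E16.5 it was lower in the mutant. Mmp23, which encodes an MMP anchored by its amino end, had 10.2, 13.1, 5.87 and 18.1 FPKM. It was the one gene of the 6 in which the E18.5 mutant library was also well above both E16.5 libraries, and its E18.5 ratio was 3.07 (2.68 to 3.53).

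Adamts10, which encodes a protease that binds fibrillin-1, had 17.3, 20.8, 7.11 and 20.7 FPKM, and an E18.5 ratio of 2.91 (2.71 to 3.14). The mutant libraries of both stages were level, and E18.5 wild type alone was low. Mmp11, stromelysin 3, a protease of stromal fibroblasts beside epithelium, had 24.9, 27.0, 8.79 and 20.6 FPKM, and a ratio of 2.34 (2.14 to 2.57). Mmp24 had 1.999, 1.39, 0.699 and 1.48 FPKM, and a ratio of 2.12 (1.67 to 2.73) that rests on about 87 wild type reads. Against E16.5 wild type, the E18.5 mutant levels of these 6 genes had log2 ratios between -0.44 for Mmp24 and 0.83 for Mmp23.

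Upstream sequence of 3 of the genes past 2-fold is shown because it differs from that of the chromosome 9 cluster, again with the motifs in capitals.
Mmp11 (chr10:75932503-75932752, - strand): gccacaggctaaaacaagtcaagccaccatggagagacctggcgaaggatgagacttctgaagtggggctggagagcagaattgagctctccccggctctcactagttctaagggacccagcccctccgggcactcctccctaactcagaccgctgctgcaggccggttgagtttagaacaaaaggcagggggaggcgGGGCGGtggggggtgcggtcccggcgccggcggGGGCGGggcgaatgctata
Mmp24 (chr2:155775092-155775341, + strand): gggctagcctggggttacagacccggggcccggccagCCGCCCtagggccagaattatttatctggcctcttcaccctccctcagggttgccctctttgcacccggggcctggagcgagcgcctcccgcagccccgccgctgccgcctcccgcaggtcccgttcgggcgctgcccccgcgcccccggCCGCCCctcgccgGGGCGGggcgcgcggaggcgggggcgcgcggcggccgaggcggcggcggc
Mmp28 (chr11:83463041-83463290, - strand): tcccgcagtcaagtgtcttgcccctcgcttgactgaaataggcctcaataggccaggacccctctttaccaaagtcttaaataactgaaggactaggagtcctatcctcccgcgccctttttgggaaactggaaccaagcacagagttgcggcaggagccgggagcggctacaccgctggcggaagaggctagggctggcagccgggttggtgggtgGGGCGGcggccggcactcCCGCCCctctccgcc
Each of the 3 held GC boxes and neither an AP-1 site nor a TATA box. Mmp23, the other gene past 2-fold with a promoter in the table, had none of the 4 motifs at either of its 2 listed starts. Promoters of members that reached 1 FPKM had a median GC content of 63.6%, with a GC box in 15 of 21, and those of members below 1 FPKM had 41.2%, with a GC box in 1 of 14. Most of the promoters below 1 FPKM were those of the chromosome 9 cluster, so this contrast largely repeats the one above. Those outside it, of Adamts13, Mmp21, Mmp25 and Timp4, had 53.6% to 66%. The median of all promoters was 52.4%, and they were not divided by the level of their genes.

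The 6 genes also shared the base composition of their transcripts. Their GC content was 55.9% to 58.6%, with a median of 58.0%, against a median of 52.7% for the other 25 members that passed the filter and 50.2% for all genes at 1 FPKM in both E18.5 libraries. Across the 31 members the E18.5 ratio was higher with higher GC content, at a Spearman's rho of 0.75, and the E16.5 ratio gave -0.25. The members share the same pair of libraries, so this is a description. With the trend of all genes on length and GC content subtracted, the rho was 0.41, the median ratio of the members was 0.17 and 2 genes, Mmp28 at a log2 ratio of 1.45 and Mmp17 at 1.34, were still at least 2-fold higher, against 3.46% of all genes, and 1 was lower, against 5.16%. The values of Mmp23, Adamts10, Mmp11 and Mmp24 were then 0.73, 0.88, 0.54 and 0.46.

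**Figure D3:**
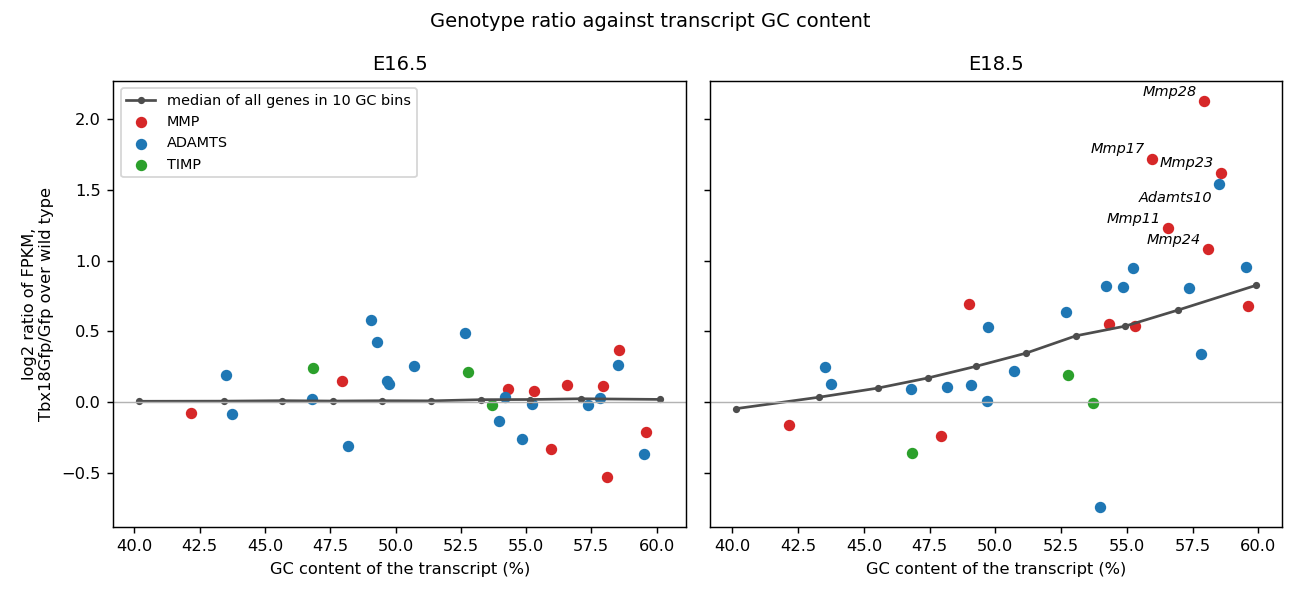
Log2 ratio of Tbx18Gfp/Gfp over wild type FPKM at E16.5 (left) and E18.5 (right) against the GC content of the transcript, 1 point per gene that passed the filter, with the median of all genes in 10 GC bins as a line. At E18.5 the line goes from -0.05 to 0.83 and the 6 labelled genes past 2-fold lie above it at its right end.

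The median gene at 1 FPKM in both E18.5 libraries had a log2 ratio of 0.29. Measured from it, 18 of the 31 members were higher in the mutant, their median was 0.25, and 4 were at least 2-fold higher and 1 lower, against 8.19% and 5.42% of all genes. Of the 31, 16 were higher and 5 lower under each of the 4 scalings tried and as deposited, and 10 changed sign in at least 1 of them. The same count was not made over all genes, of which 69.5% were higher as deposited, so it does not set the members apart. Those lower throughout were Adamts17, Timp3, Mmp7, Mmp16 and Timp2. As deposited Timp2 was level, at a log2 ratio of -0.005 (counting interval -0.04 to 0.03). Adamts17, which encodes a protease linked to short stature and lens defects, had 6.67, 6.06, 7.58 and 4.54 FPKM. The E18.5 mutant library was its lowest, with a log2 ratio of -0.74 (counting interval -0.84 to -0.63) that was -1.03 both from that median and with the trend subtracted, past 2-fold lower in both settings. Timp3 had a log2 ratio of -0.36 (-0.39 to -0.33), and -0.65 relative to the median. Timp4, the inhibitor gene below the filter, had 0.442, 0.433, 0.115 and 0.619 FPKM, and its E18.5 ratio of 5.40, from about 18 reads in wild type, had a wide counting interval (3.37 to 9.46).

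**Figure D4:**
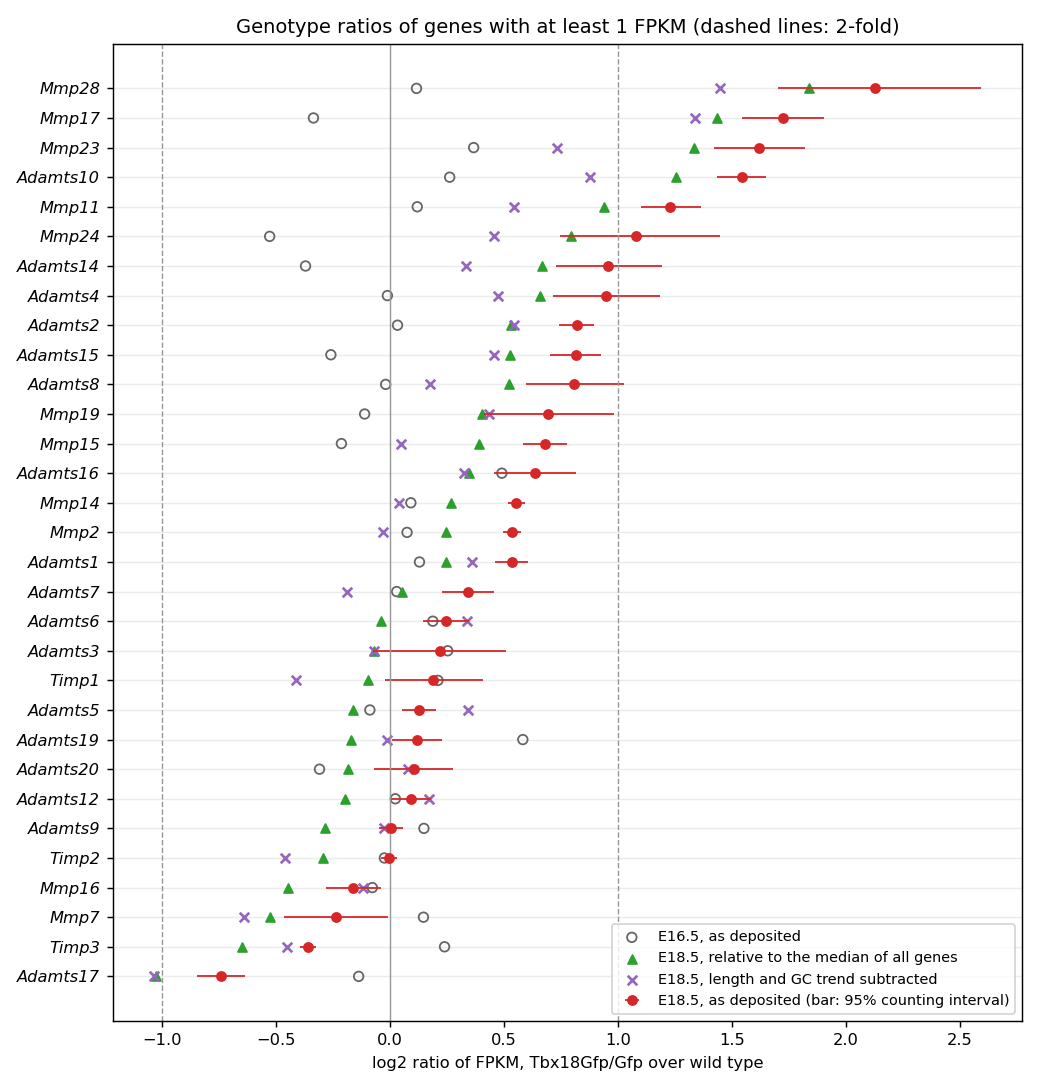
Log2 ratio of Tbx18Gfp/Gfp over wild type FPKM for the 31 genes that passed the filter at E18.5, as deposited with its 95% counting interval, measured from the median gene, and with the length and GC trend subtracted, beside the E16.5 ratio. The E18.5 ratios run from -0.74 for Adamts17 to 2.13 for Mmp28, and 2 genes stay right of the upper 2-fold line in all 3 E18.5 settings.

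By known role, the proteoglycan-cleaving ADAMTS genes Adamts1, Adamts4, Adamts5, Adamts8, Adamts9, Adamts15 and Adamts20 were all 7 higher in the E18.5 mutant as deposited, with a median log2 ratio of 0.53 and none past 2-fold, although Adamts5, Adamts9 and Adamts20 changed sign under another scaling. Measured from the median gene their median was 0.24 and 4 of the 7 were higher. With the length and GC trend subtracted it was 0.34 and 6 of the 7 were higher. As deposited 69.5% of all genes were higher. Only 2 of the 7 were higher at E16.5, where their median was -0.02. Within this group Adamts4, an aggrecanase, had 2.46, 2.44, 1.55 and 2.99 FPKM and a log2 ratio of 0.95, while Adamts9, the most abundant with Adamts1, had 20.4 and 20.5 FPKM at E18.5 and a ratio of 0.00. Adamts8 and Adamts15 lie 20.1 kb apart on chromosome 9 and had log2 ratios of 0.81 and 0.82 at E18.5, and Adamts1 and Adamts5, 55.0 kb apart on chromosome 16, had 0.53 and 0.13. With the trend subtracted Adamts8 and Adamts15 were at 0.17 and 0.46, and Adamts1 and Adamts5 at 0.36 and 0.34. The procollagen N-proteinase genes Adamts2, Adamts3 and Adamts14 had E18.5 log2 ratios of 0.82, 0.22 and 0.96, of which that of Adamts3 changed sign under another scaling, and at E16.5 they had 0.03, 0.25 and -0.37.

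From E16.5 to E18.5 the wild type libraries differed by at least 2-fold in 8 of 31 members, all of them lower at E18.5, at a background of 16.8% lower and 2.7% higher over all genes, and the median log2 ratio was -0.44 against -0.35 for all genes. The 8 were Mmp28, Mmp17, Mmp24, Mmp11, Adamts15, Adamts10, Mmp15 and Adamts14, with log2 ratios from -1.96 for Mmp28 to -1.01 for Adamts14. This comparison shares the E18.5 wild type library with the genotype comparison at E18.5, so they are not independent. Measured from the median gene, 4 members were 2-fold lower and 1 higher, against 8.23% and 5.45% of all genes, and with the trend subtracted 2 were lower and 1 higher, against 3.21% and 4.94%. In the mutant libraries only Mmp19 passed 2-fold with stage, at a background of 1.35% higher and 0.571% lower, and the median over 32 members was 0.00. Mmp19, which encodes an MMP also called RASI-1, had 0.848 FPKM in E16.5 wild type, 0.785 in E16.5 Tbx18Gfp/Gfp, 1.41 in E18.5 wild type and 2.27 in E18.5 Tbx18Gfp/Gfp UGS. Both E18.5 libraries were above both E16.5 libraries, by 1.66-fold in wild type (counting interval 1.32 to 2.07) and 2.89-fold in the mutant (2.39 to 3.52).

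The dependence on the E18.5 wild type library was looked at by leaving it out. With all 4 libraries, 10 of the 32 genes had a highest value at least 2-fold above the lowest, and without E18.5 wild type Mmp19 was the only one. That library was the lowest of the 4 for 19 genes. These counts were made for the members only, and no other library was left out. Such a spread cannot grow when a library is dropped. Over all genes, 18% were past 2-fold between the genotypes at E18.5 and 19.5% with stage in wild type, comparisons that both use that library. Without it, the shares were 1.65% between the genotypes at E16.5 and 1.92% with stage in the mutant. When E16.5 wild type was used as the control for the E18.5 mutant, stage and genotype differed together, 1 of 31 members passed 2-fold, again Mmp19, higher in the mutant, at a background of 1.23% higher and 2.51% in both directions, and the median log2 ratio was 0.08. The log2 ratios of Mmp28, Mmp17, Mmp23, Adamts10, Mmp11 and Mmp24 were then 0.17, 0.00, 0.83, 0.26, -0.27 and -0.44.

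Set beside each other within a library, the families gave a ratio that does not depend on the scaling between libraries. The 23 Mmp genes summed to 311 FPKM in wild type and 327 in the mutant at E16.5, and to 200.4 and 307 at E18.5. In the same order the 19 Adamts genes summed to 140, 150, 107 and 146 FPKM, and the 4 Timp genes to 163, 175, 194 and 176. The Mmp to Timp ratio was 1.91, 1.87, 1.03 and 1.74. Both protease sums were lowest and the Timp sum highest in E18.5 wild type. Timp2 and Timp3, 92.9% to 94.6% of the Timp sum, had their highest value there, while Timp1 was highest in the E18.5 mutant and Timp4 was lowest in E18.5 wild type. For Timp2 this was 94.9 FPKM, level with 94.6 in the E18.5 mutant. The median GC content of the 4 Timp transcripts was 50.3%, below that of the genes past 2-fold. The genes that made up most of the sums had 55.3% (Mmp2), 54.3% (Mmp14), 53.7% (Timp2) and 46.8% (Timp3). With the length and GC trend subtracted, their E18.5 log2 ratios were -0.03, 0.04, -0.46 and -0.45 in that order. The part of base composition in the Mmp to Timp ratio was not tested.

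**Figure D5:**
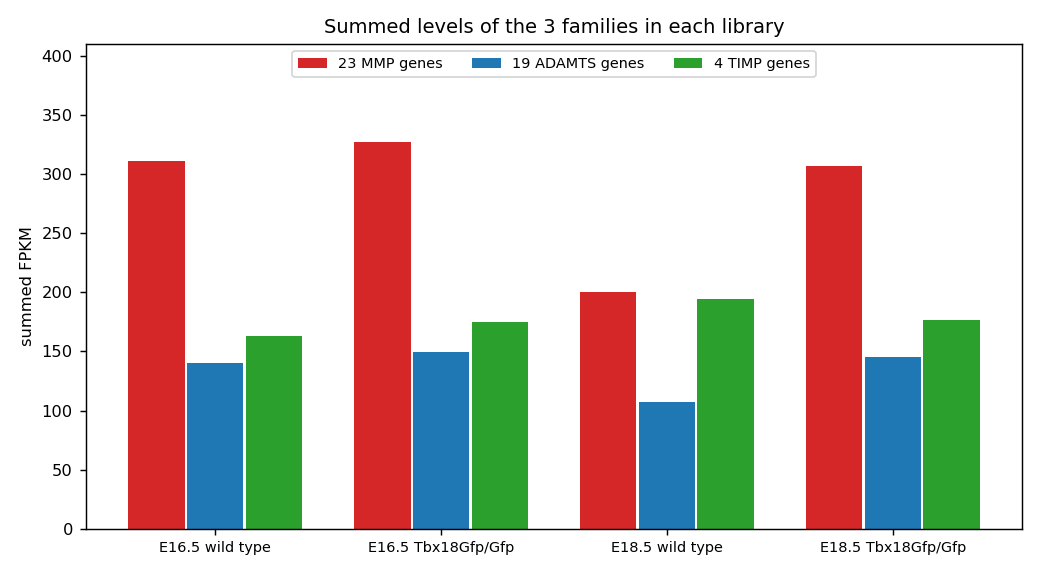
Summed FPKM of the Mmp, Adamts and Timp genes in each of the 4 libraries, 1 pooled library per bar and no error bars for want of replicates. The Mmp bar is well above the Timp bar in 3 libraries and close to it in E18.5 wild type, at 200.4 and 194 FPKM.

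The other genes of the pathway were taken from lists of inhibitors and cofactors, activators, related metalloproteases and matrix substrates, 59 genes in all, of which 46 passed the filter. At E16.5 none of them passed 2-fold in either direction. At E18.5, 9 of 46 were at least 2-fold higher in Tbx18Gfp/Gfp UGS and none lower, 19.6% against 15.1% of all genes, with a median log2 ratio of 0.56. Measured from the median gene 4 were, with a median of 0.27, and with the trend subtracted 3 were, with a median of 0.11. Among inhibitors and cofactors these were A2m, the protease trap alpha-2-macroglobulin, at 0.742 and 2.61 FPKM (log2 ratio 1.82), and the ADAMTS-like genes Adamtsl2 (1.28), Adamtsl4 (1.27) and Adamtsl5 (1.55). With the trend subtracted A2m was at 1.64 and the ADAMTS-like genes at 0.60, 0.53 and 0.57. Reck, a membrane-bound MMP inhibitor, was level at 18.6 and 17.8 FPKM (-0.06).

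Among activators, Pcsk7, a proprotein convertase, had a log2 ratio of 1.085 at E18.5, and its relative Furin, which cuts the propeptides of membrane-type MMPs and of ADAMTS proteases, had 9.57 and 18.49 FPKM (0.95). Of other metalloproteases, Adam33 had 1.55 and 5.41 FPKM (1.81) and Adam15 7.77 and 17.5 FPKM (1.17), whereas the sheddase gene Adam10 had 46.3 and 44.1 FPKM (-0.07). With the trend subtracted Pcsk7, Adam33 and Adam15 were at 0.54, 1.05 and 0.38. Of the substrates only Col2a1, a cartilage collagen, passed 2-fold, at 0.876 and 2.02 FPKM (1.20, and 0.45 with the trend subtracted). Vcan, the versican that several ADAMTS proteases cleave, had 73.2 and 67.7 FPKM (-0.11), and Dcn and Bgn were lower in the mutant, by log2 ratios of -0.42 and -0.50.

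Markers of other tissues in whole UGS moved between the same libraries. The 9 smooth muscle markers were all lower in the mutant at E16.5, with sums of 1176 (wild type) and 624 FPKM (mutant). All 9 were higher at E18.5 as deposited, with 1357 and 3684 FPKM, as were 69.5% of all genes. With the trend subtracted Smtn was at a log2 ratio of -0.01 and Lmod1 at 0.09, and the other smooth muscle markers were still higher. The 8 fibroblast and mesenchyme markers summed to 3606, 3841, 3827 and 4586 FPKM in the order above, and 7 of them were higher in the E18.5 mutant as deposited but 4 of 8 with the trend subtracted. The 8 skeletal muscle markers were all lower in the mutant at E16.5, with sums of 929 and 400 FPKM. At E18.5 they summed to 520 and 847 FPKM, of which Acta1 held 110 and 455. Of the 8, 3 were higher in the E18.5 mutant and 5 lower. The 9 markers of urogenital epithelium summed to 802, 630, 488 and 630 FPKM, of which Krt15 held 384, 258, 139 and 201. At E18.5, 5 of the 9 were higher in the mutant as deposited and 4 lower (Cdh1, Trp63, Shh and Foxa1). Cdh1, Trp63 and Foxa1 were highest in E18.5 wild type. With the trend subtracted only Krt8 was higher in the mutant, at a log2 ratio of 0.24. The 6 markers of osteoclasts and hypertrophic cartilage used here summed to 15.4 to 32.3 FPKM. As deposited 5 were higher in the E18.5 mutant, and Ibsp alone was lower, also with the trend subtracted. The 8 macrophage markers used here summed to 60.5, 75.1, 54.4 and 73.7 FPKM. As deposited 7 were higher in the E18.5 mutant and 1 lower. With the trend subtracted Csf1r, C1qa and C1qc were higher, Cd68, C1qb, Aif1 and Lyz2 were lower, and Emr1 had no value. The part of these cells in the protease levels was not tested.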

How the data were processed

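Whole UGS of male embryos was profiled by RNA-Seq, with RNA of 3 embryos pooled in each of 4 libraries. The deposited values are FPKM, which the authors computed with Cufflinks 2.2.1 after aligning single-end stranded reads with Tophat 2.1.0. The submitters' processing notes also name CASAVA 1.8.2 and Trimmomatic 0.30. The genome build is not given in the sources used here. FPKM were used as deposited, ratios had no pseudocount and needed 1 FPKM or more in one of the paired libraries, and a 2-fold ratio counted as past the threshold. With 1 library per group no test, standard deviation or p-value was computed. For depth, 15 to 27 olfactory receptor genes per library, short genes whose FPKM was that of 1 read, were used. Counting intervals (Clopper-Pearson, 95%) used reads estimated from depth and the longest GENCODE vM21 transcript. Estimated read numbers are approximate. A lowess trend (span 0.3) on transcript length and GC content, available for all 46 members and 83.9% of rows at 1 FPKM, was subtracted as an alternative. Steps were tested on simulated data. The members, lists and motifs were chosen with earlier results of these data known. Genes named are members past 2-fold between genotypes, those reaching 10 FPKM, the Timp genes, other members at 1 FPKM, and related genes past 2-fold, of which 1 is counted but not reported here. Of the genes outside this rule, Mmp8, Mmp9, Reck, Furin, Adam10, Vcan, Dcn and Bgn were named after their values were seen. The software was Python 3.11.15 (matplotlib 3.10.9, statsmodels 0.14.6, scipy 1.17.1, pandas 2.3.3, numpy 2.4.6).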

Additional observations from a re-analysis of the deposited data

Results flagged for a closer look

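Mmp17 and Mmp24 were past 2-fold between the genotypes at E18.5 and had the opposite direction at E16.5. Mmp17 had a log2 ratio of 1.72 at E18.5 and -0.34 at E16.5, and Mmp24 had 1.081 and -0.53. Each stage has 1 library per genotype, and the difference between the stages was not tested.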

How the results depend on the processing

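At E16.5 no member passed 2-fold as deposited, and 5 did without the FPKM filter, all of them genes below 1 FPKM. The 6 members past 2-fold at E18.5 became 3 with the length and GC trend subtracted (2 higher and 1 lower), 12 without the filter, 15 at 1.5-fold and 1 with E16.5 wild type as the control. The 8 with stage in wild type became 5 when measured from the median gene, at a minimum of 5 FPKM and with a pseudocount of 1, 3 with the trend subtracted, 16 without the filter and 14 at 1.5-fold, and their median log2 ratio of -0.44 turned to 0.034 with the trend subtracted. The 1 with stage in the mutant became 8 without the filter, and 0 at a minimum of 5 FPKM, at a minimum of 1 FPKM in both libraries and with a pseudocount of 1. The causes of these shifts were not tested, apart from those set by which genes an alternative admits. Under the other alternatives tried the counts stayed within 1.5 times. With 1 FPKM needed in both libraries, Mmp28 and Mmp24 dropped out of the genes past 2-fold at E18.5 and with stage in wild type. No paired analysis was possible because each group has 1 library. With 1 library per group no replicate could be left out, and the depth of about 2.90e+07 reads in E18.5 wild type limits the ratios of genes near 1 FPKM.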
